A study of Saccharomyces cerevisiae with 6 samples.

Results

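The mRNA levels of 9 genes of phospholipid and cardiolipin synthesis in budding yeast were measured on 6 Affymetrix arrays. The genes were INO1, CHO1, PSD1, CHO2, OPI3, PGS1, CRD1, CLD1 and TAZ1, chosen by gene symbol from the 5656 genes that have a probe set of their own on the array. All 9 passed the filter on low signals, as did 5385 genes in all. CLD1 was taken into the list because its signal differed between these arrays, and the other genes were gathered around it by pathway with the results known. The values of CLD1 are therefore given as a description without a test, and the side of the threshold on which the other 8 genes fell describes these arrays and is no independent evidence.

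The arrays compared 3 samples of a wild-type strain with 3 samples of a mutant strain in which lysines 4 and 79 of histone H3 are replaced by arginine, labelled H3 K4,79R. Lysine 4 is methylated by Set1 and lysine 79 by Dot1 in wild-type yeast. Both strains were grown in YPD, a rich glucose medium, to mid-logarithmic phase, and total RNA was used. The labels name no strain background, no other allele and no separate cultures for the 3 samples of a group, so the p-values rest on a spread between samples that may be no more than technical. The question stated for the series is which mRNA levels differ between the mutant and the wild type.

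Phosphatidylinositol, phosphatidylserine, phosphatidylethanolamine and phosphatidylcholine of yeast can all be made from phosphatidic acid by way of CDP-diacylglycerol. For phosphatidylethanolamine and phosphatidylcholine this is not the only route. Ino1 makes the inositol phosphate that feeds phosphatidylinositol, and INO1 is the textbook target of the activators Ino2 and Ino4 and of the repressor Opi1, being low when inositol is supplied, as in rich medium. Cardiolipin, the signature phospholipid of the inner mitochondrial membrane, is made from CDP-diacylglycerol through phosphatidylglycerol and is then remodelled by removal and replacement of an acyl chain.

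Signals are array intensities on a linear scale as deposited, given per array in the order of array numbers. Differences are mutant minus wild type on a log2(signal + 3.605) scale with the moderated SE of limma, and folds are on that scale, which understates changes at a low signal. Median signals ranged from 34.1 to 36.8 on the wild-type arrays and from 31.8 to 42.9 on the mutant arrays. Mutant array 1 had the lowest median, and it also had an ACT1 3′ to 5′ signal ratio of 1.00 against 1.498 to 1.64 on the other arrays. For SPT15 the 3′ to 5′ ratio set different arrays apart, at 2.79 and 3.35 on mutant arrays 2 and 3 against 5.02 to 6.15 in wild type and 5.71 on mutant array 1. Mutant array 1 gave the lowest of the 3 mutant values for 64.6% of all tested genes and for 5 of the 9 genes here (INO1, CHO1, PSD1, CHO2 and TAZ1). Its part in the results was not tested beyond leaving it out. The precision is limited by having 3 arrays per strain, for which an exact permutation test reaches no p below 0.1.

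Leaving aside CLD1, which was chosen for its difference on these arrays, 1 of the other 8 genes (INO1) was higher in the mutant and none was lower at an adjusted p under 0.05 (limma). Among all 5385 genes tested, 2.79% were called higher and 1.45% lower. OPI3 and CRD1 also had 3 mutant values above all 3 wild-type values without passing the threshold. Counted with INO1 and CLD1, 4 of the 9 genes were separated upwards, as were 16.6% of all tested genes, and none was separated downwards, as were 12.2% of all tested genes. The median difference over the 9 genes was 0.12, and over all tested genes it was 0.04. Since this contrast was in view when the genes were chosen, nothing is read from these shares.

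**Figure D1:**
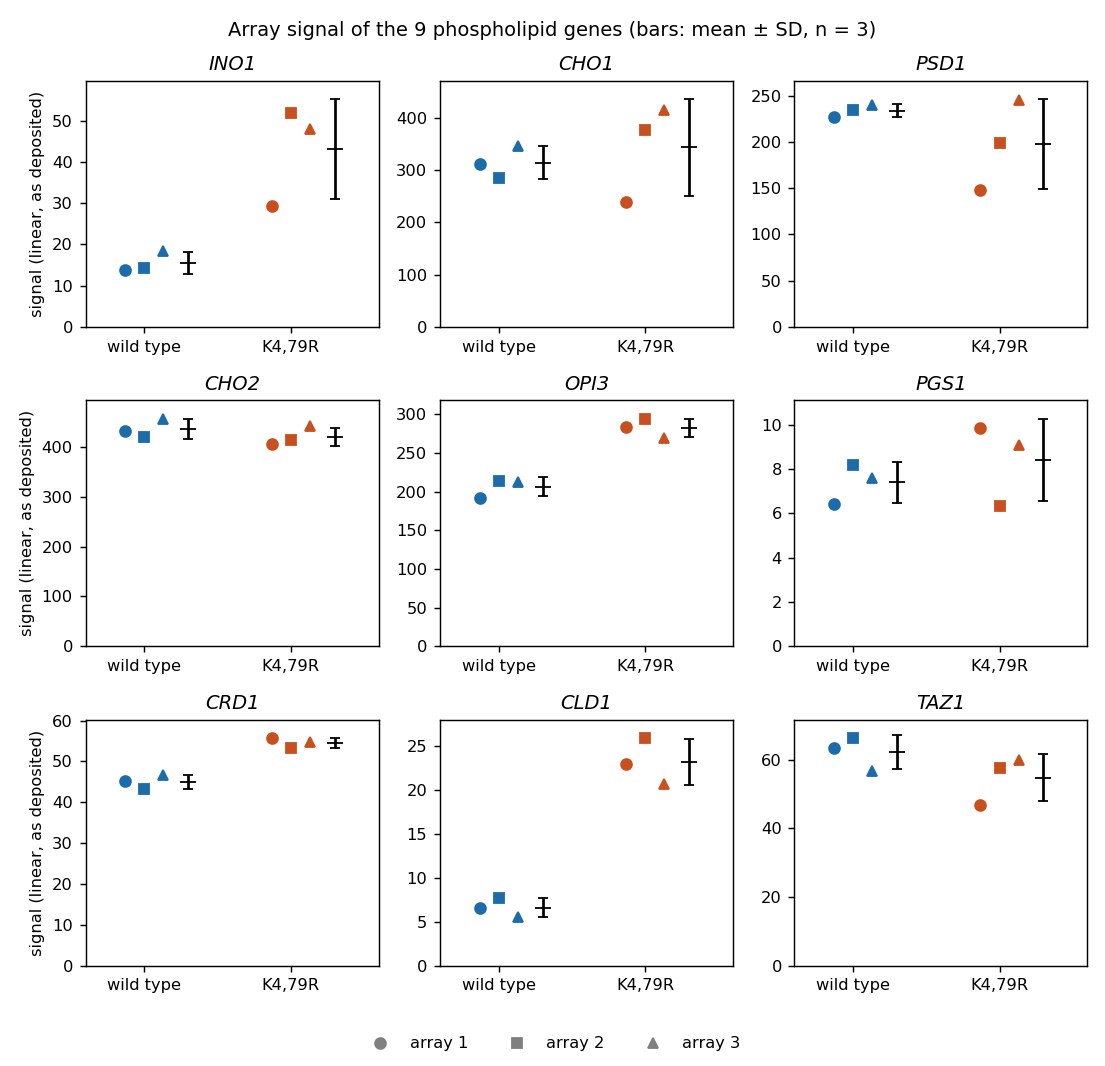
Signal of the 9 genes on each array, on a linear axis from 0 that is scaled per gene; symbols mark array numbers, and bars give the mean ± SD of 3 arrays. INO1, OPI3, CRD1 and CLD1 have mutant values that all lie above the wild-type values, and the other 5 genes overlap between the strains.

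INO1 (YJL153C), which encodes inositol-3-phosphate synthase, the first step of inositol synthesis, read 13.7, 14.3 and 18.5 on the wild-type arrays and 29.3, 51.9 and 48.1 on the mutant arrays. Every mutant value was above every wild-type value, and mutant array 1 was the lowest of its group. INO1 rose from 15.5 ± 2.62 (SD, n = 3) to 43.1 ± 12.1, a log2 difference of 1.26 ± 0.23 (SE), or 2.40-fold (limma adjusted p = 0.0251). The ratio of the mean signals without the offset was 2.78.

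The call of INO1 did not hold on leaving out most of the single arrays. It was lost without wild-type array 1, 2 or 3 (limma adjusted p = 0.119, 0.140 and 0.0710) and without mutant array 2 or 3 (limma adjusted p = 0.0740 and 0.0995). Calls fell over the whole array there, with 16 to 54 of all 5385 tested genes called higher, against 150 with all arrays. The call of INO1 was kept without mutant array 1, where the difference was 1.496 (limma adjusted p = 0.00233). That exclusion called 863 of all 5385 tested genes higher and 260 lower, against 150 and 78 with all arrays. Over the 6 exclusions the difference stayed between 1.12 and 1.496. The INO1 difference also depended on the offset, at 1.39 with an offset of 1 and 0.89 with an offset of 16.

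The branch from phosphatidylserine to phosphatidylcholine has 4 enzymes, none of which was called. CHO1 (YER026C), which encodes phosphatidylserine synthase, read 312.5, 285 and 346.5 in wild type and 239.6, 376 and 415 in the mutant. Mutant array 1 lay below the wild-type range and the other mutant arrays above it, and the difference was 0.09 ± 0.20 (limma adjusted p = 0.828). Without mutant array 1 it was 0.33 (limma adjusted p = 0.0688), and without mutant array 3 it was -0.06. PSD1 (YNL169C), which encodes the mitochondrial phosphatidylserine decarboxylase that makes phosphatidylethanolamine, read 227, 234 and 241 in wild type and 148, 199 and 246 in the mutant. Mutant arrays 1 and 2 were below the wild-type range and mutant array 3 was above it. The difference was -0.27 ± 0.17 (limma adjusted p = 0.410), and it was -0.08 without mutant array 1.

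The last steps methylate phosphatidylethanolamine to phosphatidylcholine, Cho2 adding the first methyl group and Opi3 those that follow. CHO2 (YGR157W) read 432, 419 and 457 in wild type and 405, 415 and 441 in the mutant, with overlapping ranges and a difference of -0.05 ± 0.10 (limma adjusted p = 0.795). OPI3 (YJR073C) read 192, 214 and 212 in wild type and 283, 294 and 270.0 in the mutant. All mutant values of OPI3 were above the wild-type values, and the arrays of each strain lay close together. Its means were 206 ± 12.4 and 282 ± 12.1 (SD, n = 3), a difference of 0.45 ± 0.10 or 1.36-fold. OPI3 missed the threshold narrowly (limma adjusted p = 0.0514). It passed without mutant array 1, at a difference of 0.45 (limma adjusted p = 0.0192). On leaving out any other array it missed, with limma adjusted p-values from 0.126 to 0.212. Of all 5385 tested genes, 863 were called higher without mutant array 1 and 16 to 54 without another array, against 150 with all arrays. OPI3 also missed under the 3 other scalings (limma adjusted p from 0.0876 to 0.206).

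The changes of OPI3 and CHO2 were also set against each other within each array, where a common scaling factor cancels apart from the offset. Relative to the wild-type means, OPI3 minus CHO2 gave -0.09, 0.11 and -0.03 on the wild-type arrays and 0.56, 0.58 and 0.37 on the mutant arrays. The mutant values did not overlap the wild-type values, and their mean was higher by 0.50 on the log2 scale. These values describe an unequal change of the chosen genes on these arrays, and not which of them changed. CHO1 minus PSD1 gave 0.04, -0.14 and 0.10 in wild type and 0.26, 0.49 and 0.33 in the mutant. Here too the strains did not overlap within arrays, although the signals of each gene alone did. How many gene pairs over the whole array separate in this way was not counted, so neither separation is read as a result. CRD1 minus PGS1, of cardiolipin synthesis, gave 0.14, -0.16 and 0.02 in wild type and -0.01, 0.37 and 0.05 in the mutant, and these overlapped. The pairs, of which CLD1 and TAZ1 make another, were chosen as neighbouring steps of the pathway with the signals known, and no test is given for them.

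Cardiolipin synthesis was represented by PGS1 and CRD1. PGS1 (YCL004W), which encodes phosphatidylglycerolphosphate synthase, read 6.4, 8.2 and 7.6 in wild type and 9.87, 6.33 and 9.07 in the mutant on its brighter probe set. These signals lie on both sides of 6.47, the signal at which the filter removed probe sets, and they overlapped between strains (difference 0.12 ± 0.17, limma adjusted p = 0.714). The difference was 0.03 without mutant array 1 and 0.25 without mutant array 2. PGS1 alone among the 9 genes had another probe set, which read 6.7, 5.9 and 7.0 in wild type and 9.04, 6.76 and 5.64 in the mutant. On both probe sets mutant array 1 was the highest of the 6 arrays and the strains overlapped.

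CRD1 (YDL142C), which encodes cardiolipin synthase, read 45.3, 43.2 and 46.6 in wild type and 55.7, 53.3 and 54.6 in the mutant. Its mutant values were all above its wild-type values, with an SD of 1.72 in wild type and 1.18 in the mutant. The difference was 0.26 ± 0.13 or 1.196-fold and missed the threshold (limma adjusted p = 0.275). It lay between 0.16 and 0.21 under the other scalings. With quantile normalization and with a common median the CRD1 values of the strains overlapped.

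In cardiolipin remodelling, Cld1 removes an acyl chain from cardiolipin and Taz1, the yeast tafazzin, puts another in its place. CLD1 (YGR110W) read 6.6, 7.7 and 5.5 in wild type and 23.0, 26.0 and 20.7 in the mutant. The lowest mutant value was over the highest wild-type value by a wide margin, and mutant array 1 lay between the other mutant arrays. The means were 6.6 ± 1.1 and 23.2 ± 2.65 (SD, n = 3), a difference of 1.39 ± 0.16 or 2.63-fold on the scale with the offset. The ratio of the mean signals without the offset was 3.52. The wild-type signals of CLD1 were as low as those of PGS1 and lay around the signal of the filter, and detection calls were not used here, so the wild-type level has no firm lower end.

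The difference of CLD1 lay between 1.31 and 1.47 when any array was left out, and between 1.27 and 1.35 under the other scalings. It depended more on the offset, at 1.68 with an offset of 1 and 0.79 with an offset of 16. TAZ1 (YPR140W) read 63.5, 66.4 and 56.8 in wild type and 46.9, 57.6 and 60.1 in the mutant. Its strains overlapped, and the difference was -0.18 ± 0.15 (limma adjusted p = 0.528), and it was -0.07 without mutant array 1. Set against each other within arrays, CLD1 minus TAZ1 gave -0.02, 0.06 and -0.04 in wild type and 1.76, 1.64 and 1.30 in the mutant.

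**Figure D2:**
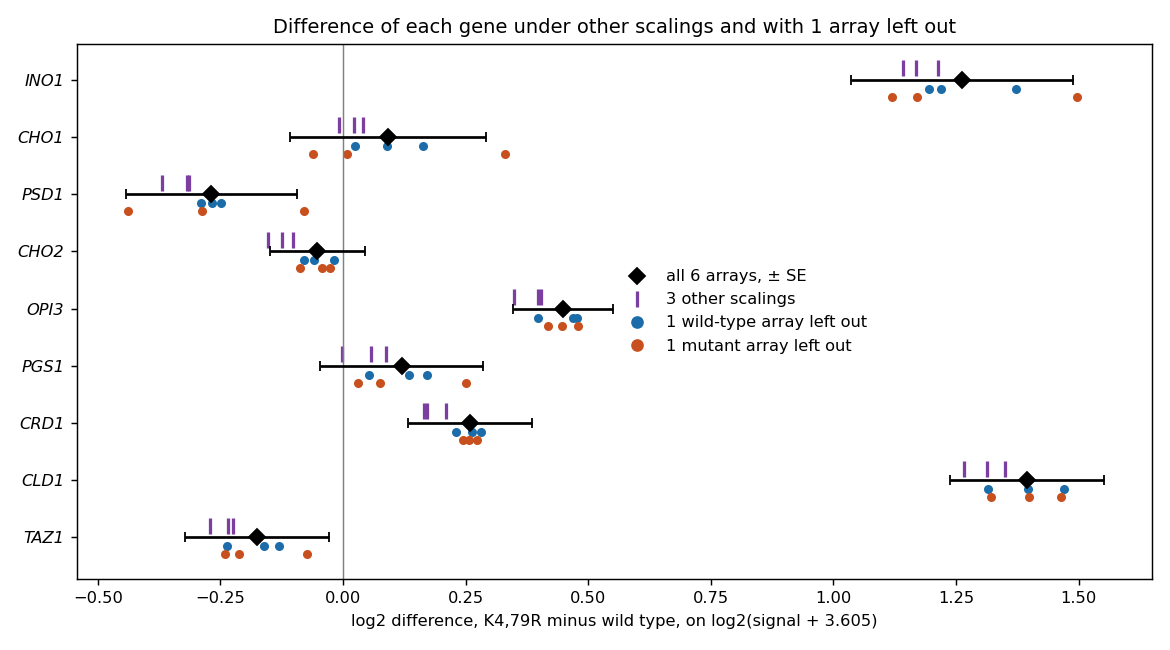
Difference of each gene, mutant minus wild type on the log2(signal + 3.605) scale, with all 6 arrays (diamond, bar ± SE), under 3 other scalings, namely quantile normalization, a common median and removal of the array constants (ticks), and without each array in turn (dots). INO1 and CLD1 stay above 1.1 throughout, OPI3 and CRD1 stay above 0, PSD1, CHO2 and TAZ1 stay below 0, and CHO1 and PGS1 reach both sides of 0.

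The differences of all 9 genes were lower under each of the 3 other scalings than as deposited. INO1, OPI3 and CLD1 had all mutant values above all wild-type values as deposited and under all 3 other scalings. Of all tested genes, 16.6% were separated upwards as deposited. The share was 14.1% with quantile normalization, 12.4% with a common median and 15.6% with the constants divided out. PSD1 and TAZ1, which overlapped as deposited, had all mutant values below all wild-type values with a common median and with the constants divided out, and TAZ1 also with quantile normalization. Among all tested genes, 17.4%, 16% and 16.7% were separated downwards under those scalings. Leaving aside CLD1, the same scalings called INO1 and no other of these genes.

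Other genes of phospholipid metabolism were taken by function in 8 lists of 64 genes, of which 63 were tested. Of these, 1 was called lower and none higher in limma, beside 1.45% lower and 2.79% higher among all tested genes. A positive difference was found for 33 and a negative one for 30, with a median of 0.03, and over all tested genes 2954 were positive and 2431 negative. Over all genes, 1193 had an unadjusted p under 0.05. The called gene, PLB2 (YMR006C), encodes a phospholipase B. It read 106, 102 and 120 in wild type and 57.4, 72.4 and 66.6 in the mutant, with no overlap, and fell by 0.71 ± 0.14 on the log2 scale (limma adjusted p = 0.0321). Its call was lost on leaving out any array other than mutant array 1, with adjusted p-values from 0.0611 to 0.138 (limma). Those exclusions called 5 to 14 of all 5385 tested genes lower, against 78 with all arrays.

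PLB2 stood in the list of phospholipases and deacylation genes, where 6 of 8 genes had a negative difference and the median was -0.21. PLB3, another phospholipase B gene, which was named after its values were seen, read 120, 116 and 125 in wild type and 62.1, 85.9 and 87.4 in the mutant. Its difference was -0.61 ± 0.15 (limma adjusted p = 0.0699), and it passed the threshold under each of the 3 other scalings. Those scalings called 164 to 202 of all 5385 tested genes lower, against 78 as deposited. PLB1, the remaining phospholipase B gene, given for context, was at -0.23 ± 0.19 with overlapping strains.

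The list of mitochondrial lipid transfer and contact genes had 9 of 11 tested genes with a positive difference, a median of 0.18 and no call. In 5 of them, which apart from PHB1 were named after their values were seen (UPS2, UPS3, PHB1, PHB2 and MDM31), all mutant values were above all wild-type values, beside 16.6% of all tested genes. PHB1, which encodes a prohibitin of the inner mitochondrial membrane, had the largest difference of this list. It read 104, 91.2 and 85.1 in wild type and 115, 180.2 and 155 in the mutant, a difference of 0.64 ± 0.18 (limma adjusted p = 0.0845). PHB1 passed the threshold under the 3 other scalings, at 0.54 to 0.63, and without mutant array 1, at 0.82. Without mutant array 1, 863 of all 5385 tested genes were called higher, against 150 with all arrays. On leaving out any other array PHB1 missed the threshold (limma adjusted p from 0.173 to 0.260). Those exclusions called 16 to 54 of all tested genes higher. UPS2, which encodes a mitochondrial phospholipid transfer protein, read 37.9, 44.9 and 41.6 in wild type and 51.2, 63.7 and 68.8 in the mutant (difference 0.52 ± 0.16, limma adjusted p = 0.106).

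The regulators of phospholipid genes were not called. INO2 (YDR123C) was at -0.12 ± 0.16 (limma adjusted p = 0.682) and OPI1 (YHL020C) at -0.13 ± 0.12 (limma adjusted p = 0.559), each with overlapping strains. INO4 (YOL108C) read 15.8, 15.3 and 16.6 in wild type and 18.2, 27.6 and 18.5 in the mutant. Its mutant values were all above its wild-type values, with mutant array 2 far above the others, and the difference of 0.34 ± 0.18 missed the threshold (limma adjusted p = 0.312) and was 0.17 without mutant array 2. ITR1, given for context, encodes the main inositol transporter. It was at -0.07 ± 0.10 (limma adjusted p = 0.715).

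In the remaining lists no gene was called, and the gene with the largest difference of each is named. DGK1, which encodes the diacylglycerol kinase that returns diacylglycerol to phosphatidic acid, read 275, 280.2 and 314.5 in wild type and 125, 194 and 222 in the mutant. Its strains did not overlap, and the difference was -0.71 ± 0.20 (limma adjusted p = 0.0906). FAA4, which encodes a fatty acyl-CoA synthetase, was at -0.54 ± 0.12 (limma adjusted p = 0.0514), also without overlap. DGK1 and FAA4 passed the threshold under each of the 3 other scalings and without mutant array 1. Of all 5385 tested genes, those scalings called 164 to 202 lower and that exclusion 260, against 78 as deposited. On leaving out any other array, which called 5 to 14 of all tested genes lower, both missed the threshold. Their limma adjusted p-values were then 0.0957 to 0.253 for DGK1 and 0.0987 to 0.216 for FAA4.

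GEP4, which encodes the phosphatase between Pgs1 and Crd1 in cardiolipin synthesis, read 63.6, 51.2 and 60.2 in wild type and 39.9, 41.1 and 44.6 in the mutant. Its mutant values were all below its wild-type values, opposite to CRD1 in the same route, and the difference was -0.44 ± 0.14 (limma adjusted p = 0.124). PCT1, which encodes the enzyme that makes CDP-choline in the Kennedy pathway, was at 0.73 ± 0.25 (limma adjusted p = 0.150). HNM1, which encodes the choline transporter, was at 0.54 ± 0.38 (limma adjusted p = 0.440). Both had overlapping strains, with the highest values on mutant array 2. PCT1 passed the threshold without mutant array 1, at 0.94 (limma adjusted p = 0.0241). It missed on leaving out any other array (limma adjusted p from 0.199 to 0.362). Of all tested genes, 863 were called higher without mutant array 1 and 16 to 54 without another array, against 150 with all arrays. HNM1 was at 0.91 without mutant array 1, and at 0.22 without mutant array 2 and 0.23 without wild-type array 3.

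**Figure D3:**
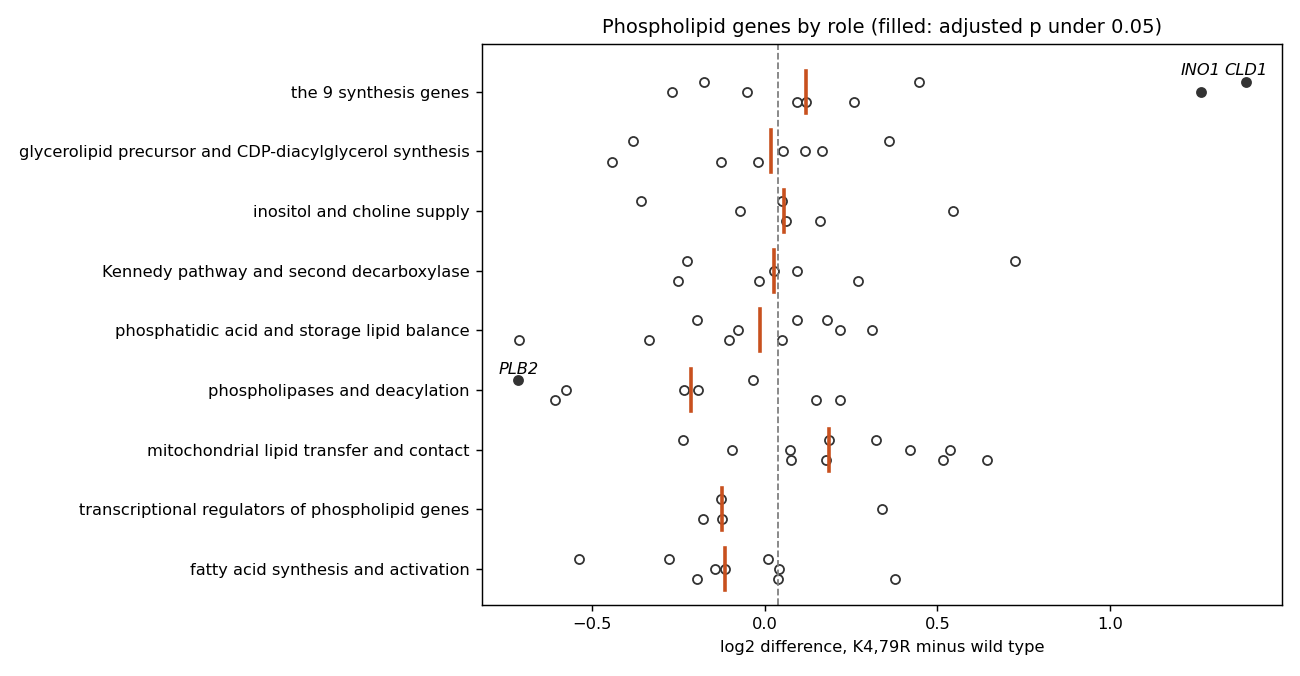
Difference, mutant minus wild type on the log2(signal + 3.605) scale, of the 9 synthesis genes and of the tested genes of 8 other lists; each circle is a gene (filled at a limma adjusted p under 0.05, which for CLD1 follows from its choice), an orange bar is the median of a row, and the dashed line is the median of all tested genes at 0.04. INO1 and CLD1 lie to the right of every other gene shown, and PLB2 is the filled circle on the left.

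The genes whose pattern over the 6 arrays lay nearest to those of INO1 and CLD1 were found by the mean absolute difference of log2(signal + 3.605), each gene taken relative to its own wild-type mean. This likeness holds mostly the size of the difference between strains. For CLD1 the 5 nearest were SNZ1 (mean absolute difference 0.13), HSP30 (0.14), SPG4 (0.14), HSP12 (0.14) and PIR3 (0.15). SNZ1 acts in vitamin B6 synthesis, HSP30 and HSP12 are stress-induced genes, and PIR3 encodes a cell wall protein. For INO1 the 5 nearest were YLL053C, TMA10, BNA2, AQY2 and AAD6, all at 0.15. BNA2 acts in NAD synthesis from tryptophan, and AQY2 encodes an aquaporin.

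**Figure D4:**
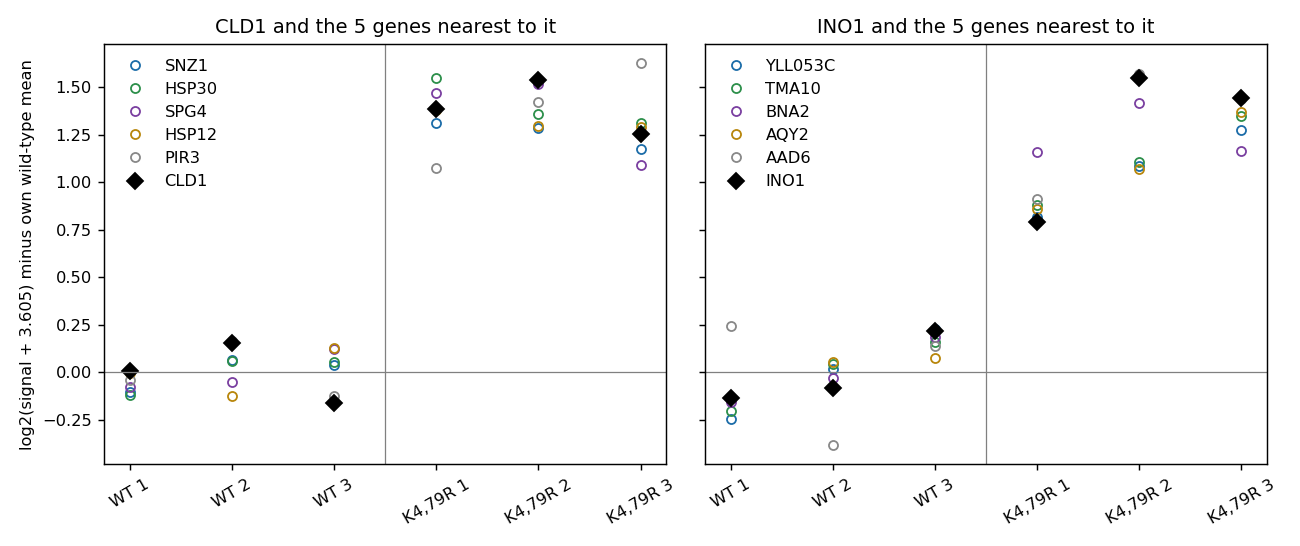
Log2(signal + 3.605) relative to each gene's own wild-type mean on the 6 arrays, for CLD1 (left) and INO1 (right) as diamonds and for the 5 genes nearest to each as circles. The CLD1 group lies above 1.0 on every mutant array, and INO1 is lower on mutant array 1, at 0.79, than on mutant arrays 2 and 3, at 1.55 and 1.45.

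Position along the chromosome was also set beside the differences, by the order of protein-coding genes in RefSeq assembly R64. The 9 genes were at least 60 genes away from a chromosome end, and none overlapped the protein-coding gene beside it. Of their 18 immediate neighbours, all tested, 1 was called lower and none higher, beside 1.45% and 2.79% of all tested genes. The called one was FMP41 beside PSD1, at -0.66 (limma adjusted p = 0.0485). The neighbours of INO1, VPS35 and SNA3, were at -0.14 and 0.22. Those of CLD1, YGR109W-B and YGR111W, were at 0.35 and 0.54 (limma adjusted p = 0.179 and 0.141). The largest difference of any neighbour was that of YCL002C beside PGS1, at 0.74 (limma adjusted p = 0.187).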

How the data were processed

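Total RNA of 3 wild-type and 3 H3 K4,79R samples was hybridised to Affymetrix yeast arrays. The deposited values are intensity on a linear scale, 1 per probe set and array, made with MAS5 per the submitters' processing notes. Every mutant array carries a further constant (0.922, 1.09 and 1.11). These constants were inferred here from the spacing of the deposited values, and their basis is unstated. Of 9335 probe sets 60 controls were left out, and of the others 6504 had 1 gene, 328 several and 2443 none. Symbols were updated through RefSeq assembly R64, which held all 6504. An offset of 3.605 (0.1 of the median of array medians) was added before log2, probe sets in the lowest 20% by mean log2 were removed, and the brightest probe set stood for a gene.

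The test was limma 3.58.1 under R 4.3.3, with lmFit and eBayes (intensity trend, two-sided) and Benjamini-Hochberg adjustment over 5385 genes. On simulated data for 5385 genes, 32% of genes with a 1.5-fold change and 74% of those with a 2-fold change were called. Of the simulated calls, 7.93% were genes given no change. The simulation shuffled the spreads over genes and drew independent normal noise. It therefore lacks any tie of spread to signal and any deviation shared by a whole array. The genes and lists were chosen with earlier results of these data known. Another gene of the list is not reported here. Named genes were all 9 described, the called genes of each list (at most 4) or its largest difference, INO2, INO4 and OPI1, and chromosome neighbours and the genes nearest in pattern; any other is marked as named after its values were seen or given for context. Alternatives covered scaling, offset, filter, probe set choice, trend, replicate block and leaving out arrays. No sequences were used here.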

Additional observations from a re-analysis of the deposited data

How the results depend on the processing

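Removal of the lowest 40% of probe sets took CLD1 out of the fit; its adjusted p is not read under any alternative, since it was chosen for its difference. With quantile normalization, a common median and the constants divided out, genes called lower over the whole array numbered 188, 202 and 164, against 78 as deposited. Those called higher were 181, 156 and 182, so the share higher fell from 65.8% to 49.1%, 43.6% and 52.6%. Of the 63 other pathway genes, 1 was called higher under each of these scalings, and 4, 5 and 4 lower. The whole-array counts beside them are out of 5385 tested genes. An offset of 16 called 163 of all tested genes higher and 86 lower, and 2 of the 63 other pathway genes lower. OPI3 (limma adjusted p = 0.0492) and FAA4 (limma adjusted p = 0.0492) then passed. Without the lowest 40%, OPI3 passed (limma adjusted p = 0.0482). The fit over all probe sets called 45 genes lower and the fit without the trend 50. With the replicate block, 18 genes were called higher and 6 lower. Leaving aside CLD1, it called none of the 9 genes, with INO1 at a limma adjusted p of 0.0648. None of the other pathway genes was called, with PLB2 at a limma adjusted p of 0.112. Deviations of same-numbered arrays correlated at -0.153, 0.0664 and -0.0182, and those of differently numbered arrays at -0.266 to 0.268. Each deviation is from the mean of only 3 arrays, which ties these correlations to each other. They therefore cannot decide whether the replicate numbers pair the samples, and the labels do not say.

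Leaving out 1 array gave 16 to 863 genes called higher and 5 to 260 lower, the highest of each without mutant array 1. It gave 1 to 3 of the 9 genes called higher (CLD1 counted), 0 to 5 other pathway genes higher and 0 to 4 lower. PGS1 turned negative with quantile normalization (-0.0022), and CHO1 with a common median (-0.0092) and without mutant array 3 (-0.062, in a range up to 0.33 without mutant array 1). The cause of these changes was not tested. Low signal limits PGS1 and the wild-type level of CLD1 most.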
